A study of Mus musculus with 2 samples.

Results

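Type 1 conventional dendritic cells (cDC1), the rare dendritic cells that carry the receptors XCR1 and CLEC9A, were examined in 2 single-cell RNA libraries of splinted back skin wounds of C57BL/6 mice 5 days after injury. A cell was kept when it had 500 or more genes and no more than 6% of its UMIs from mitochondrial genes, where a UMI is the tag that counts 1 captured RNA molecule. A kept cell was called cDC1 when Xcr1 and Clec9a together had at least 2 UMIs, Cd74, H2-Aa and H2-Ab1, all of the MHC class II pathway, made up at least 1% of its UMIs, Ccr7 had at most 1 UMI, Epcam had 0, and Col1a1 with Col3a1, and Krt5 with Krt14, each stayed under 0.5%. This rule found 63 of 15514 kept cells, 36 in the library labelled PBS and 27 in the library labelled DTX. The members were thus chosen by the measured UMIs of these 11 genes, whose values are given below as a description.

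The labels describe both groups as Mrc1-DTR mice of 7 to 9 weeks, one given PBS and the other diphtheria toxin (DTX). In these mice the promoter of Mrc1, the gene of the scavenger receptor CD206, drives the diphtheria toxin receptor, so that the toxin kills any cell that uses the promoter and not a macrophage subset alone. The methods instead describe the controls as wild-type mice given the toxin, and the libraries are named here by their labels. The methods state male mice, with live cells of 3 mice pooled per group and 2 technical but no biological replicates. The library labelled PBS held 12058 barcodes with 105511870 UMIs, of which 8326 cells were kept, and the library labelled DTX held 11031 barcodes with 81858751 UMIs, of which 7188 were kept. Each condition had 1 library, so the conditions could not be tested against each other, and every interval below is a 95% interval that covers counting error only.

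cDC1 take up material from dying cells and present it to CD8 T cells on MHC class I, a process called cross-presentation. The transcription factors IRF8 and BATF3 set up the lineage, FLT3 is its growth factor receptor, and XCR1 is the receptor for XCL1, a chemokine of NK and CD8 T cells. CLEC9A binds actin filaments exposed by dead cells. In skin, cDC1 sit mainly in the dermis, and in mice many of them carry CD103 (Itgae) and langerin (Cd207).

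The promoters of Clec9a (ENSMUSG00000046080) and Xcr1 (ENSMUSG00000060509) are shown because these 2 genes chose the cells. Both were matched by symbol to RefSeq on GRCm38.p6, the patched form of the mm10 build to which the authors mapped. Each runs 5′ to 3′ on the strand of its gene from 250 bases before to 50 bases after the transcription start, and the capitals mark the bases from the start onward.
Clec9a, plus strand, chr6:129408612-129408911: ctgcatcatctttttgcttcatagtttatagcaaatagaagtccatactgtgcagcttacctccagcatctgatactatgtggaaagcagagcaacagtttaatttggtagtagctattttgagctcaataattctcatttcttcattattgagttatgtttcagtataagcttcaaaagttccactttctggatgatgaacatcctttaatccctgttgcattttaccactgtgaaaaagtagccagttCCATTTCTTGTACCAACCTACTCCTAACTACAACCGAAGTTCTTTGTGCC
Xcr1, minus strand, chr9:123861980-123862279: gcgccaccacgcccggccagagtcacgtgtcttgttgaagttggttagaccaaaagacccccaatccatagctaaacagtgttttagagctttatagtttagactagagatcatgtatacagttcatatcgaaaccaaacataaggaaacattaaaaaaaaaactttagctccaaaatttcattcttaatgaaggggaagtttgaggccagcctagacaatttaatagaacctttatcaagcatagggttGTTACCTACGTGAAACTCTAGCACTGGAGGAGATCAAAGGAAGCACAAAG
Neither window held the letters TGANTCA, the AP-1 motif of which BATF3 is a family member, or an IRF motif of GAAA followed after any 2 bases by GAAA, on either strand. These letters were found in 7.81% and 3.44% of 32851 promoters of the same length. No match in these 300 bases says nothing about binding elsewhere.

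Mrc1, the gene that drives the toxin receptor, was low in cDC1 of both libraries. It had 12 UMIs in 4 of 36 cDC1 in the library labelled PBS and 14 UMIs in 4 of 27 in the library labelled DTX, or 24.2 and 36.3 UMIs per 1000000 UMIs (CPM) summed over the cells. In macrophages, taken by Adgre1, Fcgr1, Mrc1 and Cd68, the level was 519 CPM in the library labelled PBS and 478 CPM in the library labelled DTX. The share of kept cells with a UMI of Mrc1 was 21.2% (20.3% to 22.1%) in the library labelled PBS and 50.1% (49.0% to 51.3%) in the library labelled DTX, against 0.885% and 1.32% of lymphocytes, with medians of 9822.5 and 7350 UMIs per kept cell and 6797 and 8058 per lymphocyte. Over all kept cells the target gene was thus found in a larger share of the library labelled DTX, which goes against the label of a depleted library, and macrophages made up 14.4% of kept cells in the library labelled PBS and 50.8% in the library labelled DTX. Within macrophages, for whose choice Mrc1 was one of the genes, the share with a UMI of Mrc1 was lower in the library labelled DTX, at 80.6% (78.2% to 82.8%) and 75.6% (74.1% to 76.9%), and after each cell was thinned to 2000 UMIs it was 57.2% (54.3% to 60.1%) and 49.5% (47.9% to 51.1%). C1qb, a complement gene of tissue macrophages, was found in 79.4% (77.0% to 81.7%) and 45.4% (43.8% to 47.1%) of the thinned macrophages. The study's text assigns the 2 totals of barcodes to the groups the other way round from the labels. Its descriptions of more immune cells, of a larger share of macrophages among them and of a smaller share of C1qa-positive macrophages in depleted wounds run with the labels. Ptprc, a leukocyte gene, was found in 2401 of 8326 kept cells (PBS) and in 5198 of 7188 (DTX). The Ptprc and C1qb values run the same way as these descriptions, and the totals of barcodes run the other way. Which printed statement is in error was not tested. The labels were kept, and the sign of each ratio between the libraries below rests on them.

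The libraries shared 37 barcodes, 20 of them among kept cells and 0 among cDC1. The median cDC1 had 12205 UMIs in the library labelled PBS (7564 to 24564) and 13777 in the library labelled DTX (5453 to 25858). The rule removes no doublets. A doublet caller marked 0 of the 36 cDC1 in the library labelled PBS by its own threshold. In the library labelled DTX its threshold marked no cell at all, and the highest 8% of scores, taken instead, held 5 of the 27 cDC1, so these 2 counts come from different rules and were not compared.

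The cells carried the program of cDC1 beyond the genes that chose them. Of 10 further markers (Flt3, Irf8, Batf3, Itgae, Cd24a, Cadm1, Tlr3, Wdfy4, Naaa and Ppt1), the median cDC1 had UMIs of 8 in the library labelled PBS and of 7 in the library labelled DTX. Irf8 stood at 751 CPM in the library labelled PBS and at 851 CPM in the library labelled DTX. In the same libraries it stood at 14.8 and 60.2 CPM in type 2 dendritic cells taken by Cd209a, at 242 and 283 CPM in mature dendritic cells taken by Ccr7, and at 62.0 and 116 CPM in Langerhans cells taken by Cd207 and Epcam. Batf3 stood at 99.0 and 112 CPM in cDC1, against 12.3 and 10.3 CPM in the Cd209a cells and 56.9 and 52.4 CPM in the Ccr7 cells. Both factors were higher in cDC1 than in the 3 other dendritic groups of the same library. Wdfy4, which is needed for cross-presentation, stood at 281 and 309 CPM, Naaa, a lysosomal amidase, at 675 and 561 CPM, and Ppt1, a lysosomal thioesterase, at 408 and 478 CPM. Tlr3, a sensor of double-stranded RNA that marks cDC1 elsewhere, had 4 UMIs in the library labelled PBS and 0 in the library labelled DTX, which allows up to 3 UMIs.

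**Figure D1:**
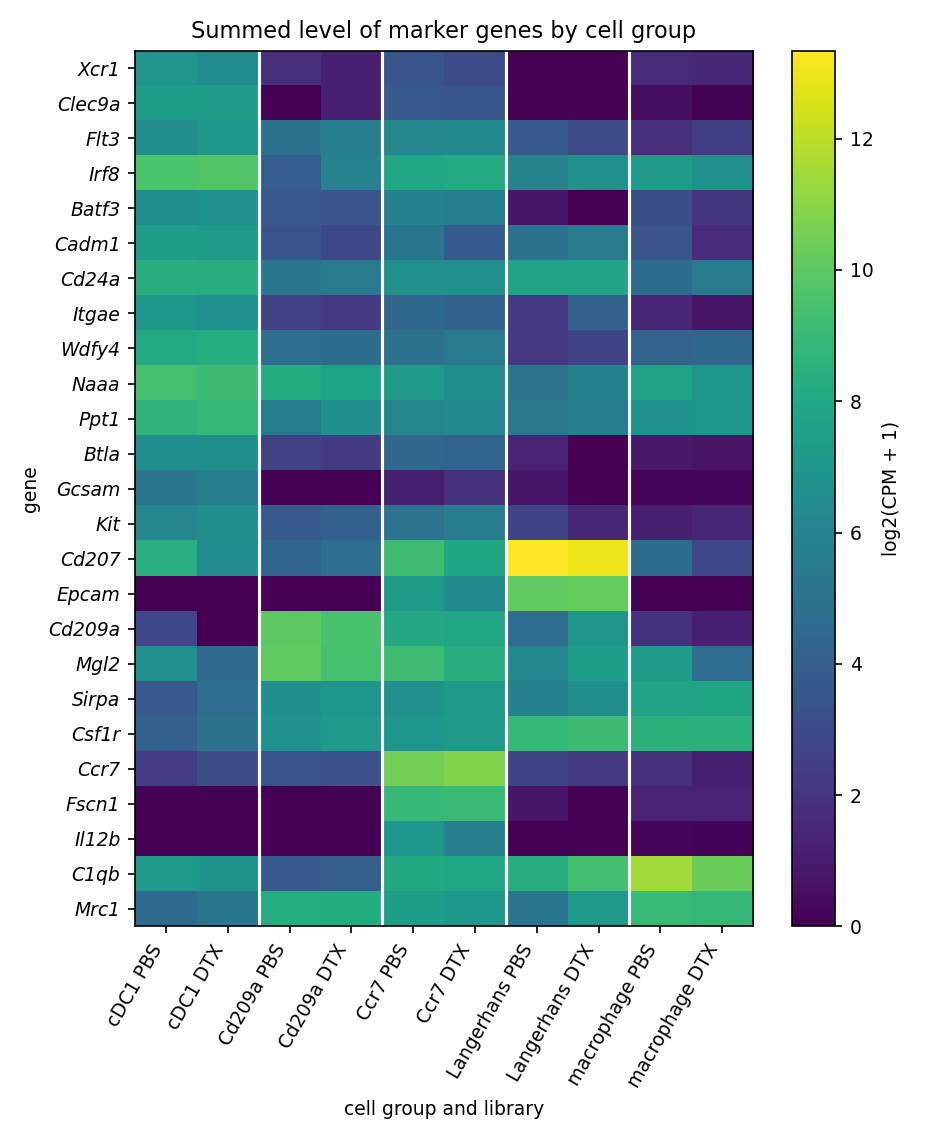
Level of 25 genes (rows) summed over the cells of 5 groups in each library (columns), as log2 of CPM with 1 CPM added; colours run from dark (0) to yellow. Irf8, Batf3, Wdfy4 and Naaa are brighter in the 2 cDC1 columns than in the other dendritic columns, and the mature genes Fscn1 and Il12b are at 0 there.

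Markers of other cells were low in the sum, with exceptions. The 8 markers of type 2 dendritic cells summed to 182 CPM in the library labelled PBS and to 166 CPM in the library labelled DTX. Of these, Mgl2 had 50 and 9 UMIs, Clec10a 24 and 23, and Cd209a 3 and 0. The 5 markers of plasmacytoid dendritic cells summed to 232 and 374 CPM. Most of the latter sum was Bst2, which many cells express and interferon raises, with 98 UMIs in 31 cDC1 and 135 UMIs in 26, whereas Siglech and Klk1 had 0 in both libraries. Cd3g and Trbc2 of T cells had 0 UMIs in both libraries. Klrk1, an activating receptor best known from NK cells, had 73 UMIs in 29 of 36 cDC1 and 64 UMIs in 23 of 27, and was the most abundant of the 7 T and NK cell markers, whose other 6 members had at most 1 UMI in each library. The 8 macrophage markers summed to 519 CPM in the library labelled PBS and to 491 CPM in the library labelled DTX, with Cd68 the most abundant by UMIs. The 5 Langerhans cell markers had the highest sum of these lists in the library labelled PBS, 715 CPM against 452 CPM in the library labelled DTX, a log2 ratio of -0.66 (-0.93 to -0.40). Of this, 173 and 33 UMIs were Cd207 and 162 and 123 were Cd24a, which cDC1 also carry, while Epcam was at 0 by the rule. The 6 fibroblast genes summed to 317 and 70.1 CPM, led by Col3a1 in both libraries, and the 6 keratinocyte genes to 111 and 31.2 CPM, led by Krt14. The sums of the fibroblast and keratinocyte genes were thus lower in cDC1 of the library labelled DTX. Their part in the ratios below was not tested.

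The genes that set cDC1 furthest apart from the other 3 dendritic groups, ranked by the smaller of the 2 libraries, were led by Clec9a, A530099J19Rik, Xcr1, Itga1, Agpat3 and Mllt3. This ranking is a description, since Xcr1 and Clec9a chose the cells. Itga1, a subunit of a collagen-binding integrin, stood at 236 and 241 CPM in cDC1 and at 11.6 and 15.9 CPM in the other dendritic groups. Ccl4, a chemokine that draws T cells, NK cells and monocytes, ranked 7 with 218 and 1199 CPM against 18.8 and 51.1 CPM. Btla, an inhibitory receptor of the immunoglobulin family, ranked 18 with 90.9 and 98.6 CPM against 10.7 and 12.8 CPM. Hepacam2, Lrrk2, Sema4f, St3gal5 and Ptpn22, an intracellular phosphatase of lymphocytes, were also among the first 20. The 10 most abundant genes were Tmsb4x, Cd74, Cst3, Actb, Malat1, H2-Aa, H2-Ab1, Actg1, mt-Co3 and H2-Eb1, and Cst3, the protease inhibitor cystatin C, stood at 27024 and 24900 CPM.

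Clec9a was found in 35 of 36 and 24 of 27 cDC1 and Xcr1 in 23 of 36 and 15 of 27. Their summed levels were 174 and 166 CPM for Clec9a and 123 and 88.3 CPM for Xcr1, so Clec9a carried most of the choice of cells in both libraries. At the threshold itself, 9 cells of the library labelled PBS and 11 of the library labelled DTX had exactly 2 UMIs of the pair, with a median of 7 of the 10 further markers in each. The 33 and 40 cells just outside, which met every other condition with 1 UMI of the pair, had a median of 3 of these markers in each library, and 11 of the 33 and 13 of the 40 had 5 or more. They were shallower, with a median of 6692 and 9400 UMIs against 12071 and 11500 in the cells just inside. Scaled to depth they also differed, with Irf8 at 251 and 168 CPM just outside against 508 and 590 CPM just inside and C1qb at 1245 and 802 CPM against 601 and 86.5 CPM. Just inside, all 71 C1qb UMIs of the library labelled PBS lay in 1 cell, and 1 cell of the library labelled DTX held 9. Both are among the cells with macrophage RNA set apart below.

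The share of cDC1 depended on what it was divided by. cDC1 made up 0.432% of kept cells (0.303% to 0.598%) in the library labelled PBS and 0.376% (0.248% to 0.546%) in the library labelled DTX. Of cells with a UMI of Ptprc, the gene of the leukocyte antigen CD45, they made up 1.46% (1.02% to 2.02%), or 35 of 2401, and 0.50% (0.327% to 0.732%), or 26 of 5198. Of the 4 dendritic groups together they made up 9.45% (6.71% to 12.8%) and 7.65% (5.10% to 10.9%). The intervals overlapped for kept cells and for the dendritic groups and did not overlap for Ptprc-positive cells, of which the library labelled DTX held more. Macrophages made up 14.4% of kept cells in the library labelled PBS and 50.8% in the library labelled DTX. The same live cell sort was used for both libraries.

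**Figure D2:**
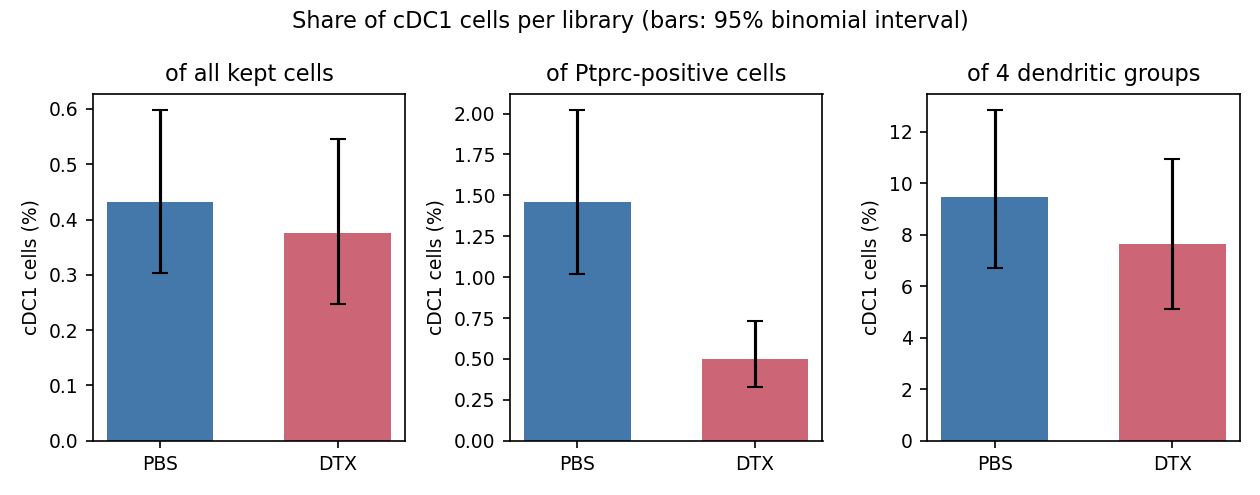
Share of cDC1 in each library (vertical axis, percent, starting at 0) among all kept cells, Ptprc-positive cells and the 4 dendritic groups, with 95% binomial intervals. The share of Ptprc-positive cells is 1.46% in the library labelled PBS and 0.50% in the library labelled DTX, and the intervals of the other 2 shares overlap.

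Some cDC1 carried RNA of macrophages. After single cells had been seen, members with at least 5 UMIs of Ccr1, Fcgr1 and Itgam together were set apart, which gave 1 cell in the library labelled PBS and 6 in the library labelled DTX, 4 of the latter among the 5 with high doublet scores. The other 56 cDC1 had at most 2 UMIs of these 3 genes. The cell of the library labelled PBS had 9 of the 10 further cDC1 markers and a C1qb level of 3117 CPM, and the 6 cells of the library labelled DTX had between 2 and 9 markers with a median of 6, Ccr1 at 456 CPM and Cxcl2 at 6934 CPM. Of the 60 Irf8 UMIs of these 6 cells, 52 lay in 2 cells, and the other 4 cells had between 1 and 5 each. In the remaining 35 and 21 cDC1, Ccr1 had 0 UMIs in both libraries, C1qb stood at 2.12 and 3.22 CPM and Cxcl2 at 138 and 122 CPM. These 7 cells are called cells with macrophage genes below, and each ratio past 2-fold that is printed with its interval is given also without them. The ratios of 12 genes under 2-fold (Irf8, Batf3, Id2, Spi1, Plet1, Flt3, Wdfy4, Tap1, Psme1, Ctss, Cd86 and Cd83) are printed over all cDC1. Without the 7 cells all 12 stayed within their intervals, and 3 near 0 (Tap1, Cd86 and Cd83) changed sign.

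Between the libraries, 2163 genes had at least 50 UMIs in cDC1. Of these, 66 (3.05%) were at least 2-fold higher and 31 (1.43%) at least 2-fold lower in the library labelled DTX, together 97 genes (4.48%). The median log2 ratio (DTX over PBS, 1 CPM added) was 0.04. Without the cells with macrophage genes, 39 of 1925 genes (2.03%) were higher and 41 (2.13%) lower, together 80 (4.16%). The lists that follow were read against these shares.

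The measured lineage factors stayed under 2-fold between the libraries, and Id2 and Spi1 moved in opposite directions. Of 10 transcription factors, 7 were measured with at least 50 UMIs, 0 were past 2-fold, and their median log2 ratio was 0.06. The log2 ratio was 0.18 (-0.04 to 0.40) for Irf8 and 0.17 (-0.45 to 0.79) for Batf3. Id2, a helix-loop-helix inhibitor that cDC1 need, stood at 735 and 514 CPM with a log2 ratio of -0.52 (-0.77 to -0.26), the lowest of the 7. Spi1, the gene of PU.1, stood at 305 and 439 CPM with a log2 ratio of 0.52 (0.20 to 0.85).

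Among 19 surface and uptake genes, 12 were measured, 0 were 2-fold higher and 1 was 2-fold lower, with a median of -0.15. The 1 gene was Cd207, the lectin langerin, with 173 UMIs in 16 of 36 cDC1 of the library labelled PBS and 33 UMIs in 5 of 27 of the library labelled DTX. Its level was 349 CPM (PBS) and 85.7 CPM (DTX), a log2 ratio of -2.02 (-2.61 to -1.48), and -2.64 without the cells with macrophage genes. After each cell was thinned to 2000 UMIs, Cd207 was found in 25.0% (12.1% to 42.2%) and 18.5% (6.30% to 38.1%) of cDC1, against 0.455% and 0% of lymphocytes, so the intervals of the shares overlapped. Clec9a, Cd24a, Cadm1, Itgae and Xcr1 had log2 ratios between -0.48 and -0.04, and Plet1, a surface protein of some skin dendritic cells, one of 0.53 (0.30 to 0.76).

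Growth factor receptors and antigen presentation showed no gene past 2-fold. Flt3 stood at 94.9 and 135 CPM with a log2 ratio of 0.50 (-0.09 to 1.11), and the 5 measured receptors, which include Kit and the GM-CSF receptor chains Csf2ra and Csf2rb, had a median of 0.48. This median was -0.056 with at least 3 UMIs of Xcr1 and Clec9a together and 0.11 with at least 1 UMI of each. Both rest on 3 genes, and no direction was read from the list. Of 22 genes of MHC class I and cross-presentation, 17 were measured with a median of 0.16. Ratios were above 0 for 14 of them, against 1171 of all 2163 measured genes. Without the cells with macrophage genes 12 of 17 measured genes were above 0, against 1035 of all 1925. Wdfy4 had a log2 ratio of 0.14 (-0.23 to 0.50), the transporter subunit Tap1 one of 0.04 (-0.39 to 0.47) and the proteasome activator Psme1, with 659 and 877 CPM, one of 0.41 (0.19 to 0.64). Of 14 MHC class II pathway genes, 12 were measured with a median of -0.13. H2-Aa, H2-Ab1 and Cd74 chose the cells. Ctss, the protease that trims the invariant chain, had 632 and 953 CPM and a log2 ratio of 0.59 (0.37 to 0.81), and Ciita, the class II transactivator, 37 and 24 UMIs.

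Over all cDC1, cytokines and chemokines held the most genes past 2-fold of the lists. Of 19 genes 7 were measured, 4 (Ccl3, Ccl4, Cxcl2 and Tgfb1) were at least 2-fold higher in the library labelled DTX and 0 were lower, and the median was 1.01. Without the cells with macrophage genes 1 of 5 measured genes, Ccl4, was past 2-fold, with a median of 0.63. The order of the lists then turned, since costimulation and maturation and immediate early and heat shock each held 2.

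Ccl4 had 108 UMIs in 11 of 36 cDC1 of the library labelled PBS, with at most 45 in 1 cell, and 462 UMIs in 14 of 27 cDC1 of the library labelled DTX, with at most 94. The level was 218 and 1199 CPM, a log2 ratio of 2.45 (2.15 to 2.77). The cells of the libraries overlapped, with a median of 0 and 1 UMI. The ratio was 2.52 without the cells with macrophage genes and 2.94 without the cell with the most UMIs of Ccl4 in each library. It was lower, but past 2-fold, with at least 3 UMIs of Xcr1 and Clec9a together (1.89), with at least 1 UMI of each (1.81, in 22 and 12 cells) and as a mean over cells (1.99). In thinned cells Ccl4 was found in 19.4% (8.19% to 36.0%) and 44.4% (25.5% to 64.7%) of cDC1, so the intervals overlapped. The same shares were 1.60% and 2.22% in Langerhans cells, 3.68% and 4.25% in Ccr7 cells, 4.0% and 6.06% in Cd209a cells, 7.27% and 1.97% in lymphocytes and 10.7% and 13.6% in macrophages. The gene lies on chromosome 11 of GRCm38 from 83662584 to 83664683 beside its relative Ccl3, which lies from 83647844 to 83649355. Ccl3 had 7 UMIs in 2 cDC1 of the library labelled PBS and 48 UMIs in 7 of the library labelled DTX, 35 of them in 1 cell, with a log2 ratio of 3.05 (1.99 to 4.53). The ratio of Ccl3 was 3.52 without the cells with macrophage genes, and it was below its interval with at least 3 UMIs of Xcr1 and Clec9a together (1.61) and with at least 1 UMI of each (1.23).

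Cxcl2, a neutrophil attractant, had 116 UMIs in 15 of 36 and 555 UMIs in 15 of 27 cDC1, a log2 ratio of 2.62 (2.33 to 2.92). Without the cells with macrophage genes the ratio was -0.17. Cxcl3, its relative, went from 4.79 to -1.27. These 2 ratios rest on the cells with macrophage genes, in which Cxcl2 stood at 2239 CPM in the 1 cell of the library labelled PBS and at 6934 CPM in the 6 of the library labelled DTX.

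Il1b, a cytokine of inflammation, was abundant in cDC1 of both libraries. It had 1344 UMIs in 32 of 36 cDC1 and 1731 UMIs in 25 of 27, with a median of 21.5 and 43 UMIs per cell and a highest value of 150 and 246. The level was 2715 and 4493 CPM, a log2 ratio of 0.73 (0.62 to 0.83), under 2-fold, and 0.84 without the cells with macrophage genes. In thinned cells it was found in 77.8% and 88.9% of cDC1, against 4.55% and 3.95% of lymphocytes. Il12b, a cytokine by which cDC1 drive T helper type 1 responses, Il12a and Ccl5 had 0 UMIs in cDC1 of both libraries, and Cxcl9 and Cxcl10, ligands of CXCR3, had 6 and 7 UMIs in the library labelled PBS and 25 and 24 in the library labelled DTX.

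**Figure D3:**
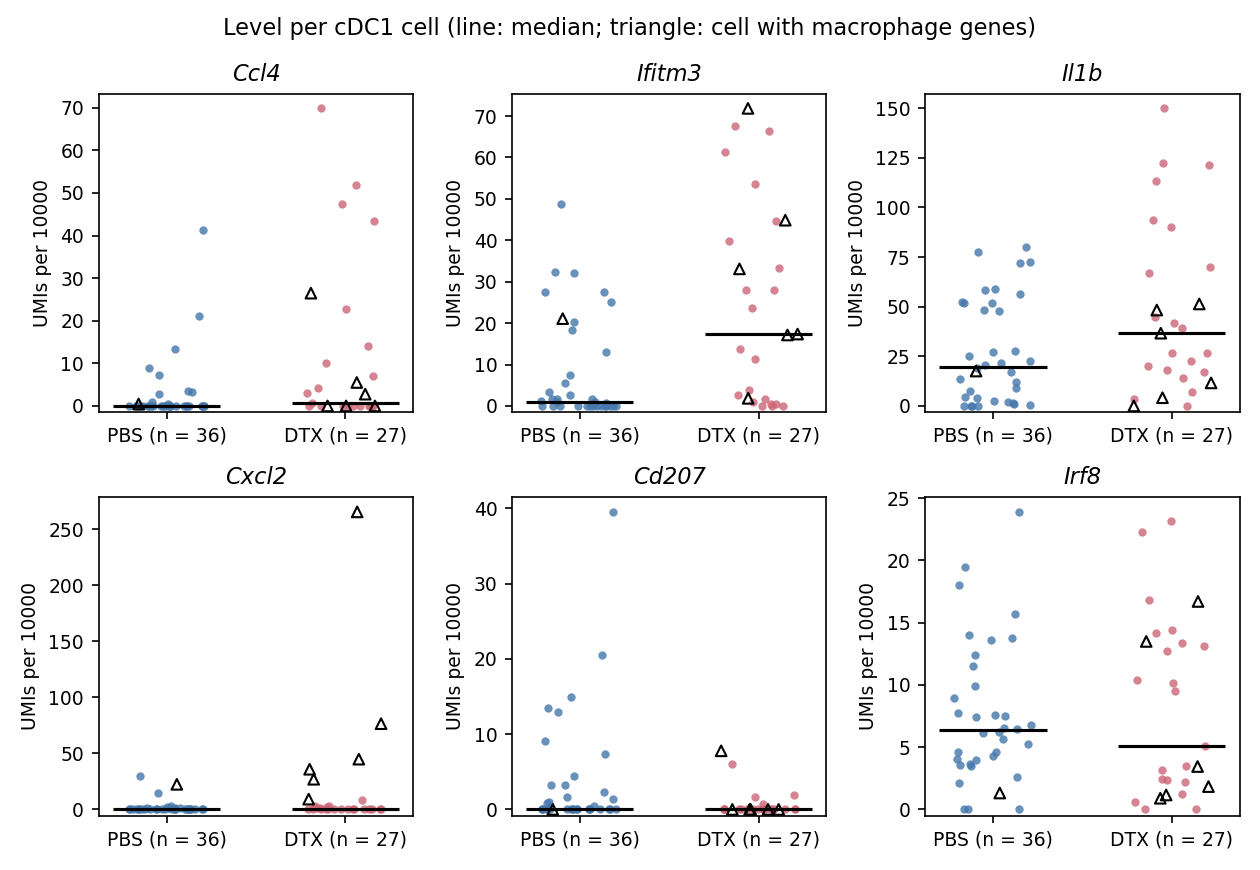
UMIs per 10000 of 6 genes (vertical axes, linear) in each cDC1 of the libraries labelled PBS (36 cells) and DTX (27 cells); lines are medians and open triangles are the 1 and 6 cells with macrophage genes. High Cxcl2 in the library labelled DTX lies in triangles, whereas Ccl4 and Ifitm3 are high in other cells, and high Cd207 lies mainly in the library labelled PBS.

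Of 19 genes of costimulation and maturation, 8 were measured, 2 were 2-fold higher (Cd80 and Pdcd1lg2) and 0 lower, with a median of 0.28. Cd80, a ligand of CD28, had 24 UMIs in 17 of 36 cDC1 and 57 UMIs in 19 of 27, a level of 48.5 and 148 CPM and a log2 ratio of 1.59 (0.90 to 2.36). Pdcd1lg2, the gene of the PD-1 ligand PD-L2, had 21 and 39 UMIs and a log2 ratio of 1.24 (0.45 to 2.09). Both stayed past 2-fold without the cells with macrophage genes, at 1.56 and 1.40. In thinned cells Cd80 was found in 13.9% and 11.1% of cDC1, near the level of 1 UMI, so the share went against the CPM and no order was read from it. Cd86, the other CD28 ligand, had 287 and 273 CPM and a log2 ratio of -0.07 (-0.45 to 0.30), and Cd83 one of -0.01 (-0.25 to 0.23). Fscn1, Lamp3 and Cd70 had 0 UMIs in both libraries.

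The remaining lists stayed near the median of all genes or held few measured genes. Of 16 immediate early and heat shock genes, which dissociation also raises, 13 were measured, 2 were 2-fold higher (Fosb and Hspa1b), 0 lower, with a median of 0.12. Of 10 genes of NF-kB feedback 6 were measured with 1 higher, the superoxide dismutase Sod2 with 84.8 and 184 CPM and a log2 ratio of 1.11 (0.55 to 1.71), which was 0.67 without the cells with macrophage genes. Of 20 genes of glycolysis and hypoxia 11 were measured, 0 past 2-fold, with a median of 0.12. Of 18 sensors of nucleic acids and microbes 2 were measured, among them Unc93b1, the carrier of endosomal Toll-like receptors, with 85 and 70 UMIs. Of 20 interferon-stimulated genes 5 were measured, 0 past 2-fold, with a median of 0.39 that was -0.39 with the marked doublets removed and -0.65 without the cells with macrophage genes, so no direction was read from it. Of 9 chemokine receptors only Xcr1, which chose the cells, was measured.

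Cycling genes were found in part of the cDC1. Of 20 cell cycle genes 4 were measured, with a median of -0.38. All 4 had ratios below 0, against 992 of all 2163 measured genes, and 1 of them, Top2a, was 2-fold lower. Without the cells with macrophage genes 3 of 4 were below 0, against 890 of all 1925, and 0 were 2-fold lower. Top2a, the topoisomerase of dividing cells, had 44 UMIs in 9 of 36 and 16 UMIs in 4 of 27 cDC1, a log2 ratio of -1.08 (-2.02 to -0.24) that was -0.84 without the cells with macrophage genes. Cells with at least 2 UMIs of Mki67 and Top2a made up 9 of 36 cDC1 (25.0%) in the library labelled PBS and 3 of 27 (11.1%) in the library labelled DTX, a count added after the values had been seen. The same share was 17.3% and 10.3% in Cd209a cells, 7.23% and 8.02% in Ccr7 cells, 22.8% and 8.70% in Langerhans cells, 1.25% and 0.932% in macrophages and 48.7% and 47.4% in lymphocytes.

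The 6 ligands of cDC1 receptors were at or near 0 in cDC1, with 0 UMIs in the library labelled PBS and 3 in the library labelled DTX. Xcl1, the ligand of XCR1, had 0 UMIs in cDC1 and stood at 491 and 311 CPM in lymphocytes. Flt3l, the ligand of FLT3, stood at 11.9 and 15.3 CPM in lymphocytes and at 0 and 2.60 CPM in cDC1.

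The 12 highest ratios across all measured genes were those of Slpi, Cxcl3, AA467197, Gm19951, Ccl3, Cxcl2, Clec4d, Ccl9, Ccl4, Ms4a4c, Ifitm1 and Ifi27l2a, between 2.24 and 5.92. Without the cells with macrophage genes 9 of them stayed past 2-fold and 3 (Cxcl3, Cxcl2 and Clec4d) lay below 0. Among the 9, some moved far. Slpi, a protease inhibitor, had 1 UMI in the library labelled PBS and 70 in the library labelled DTX, 65 of them in 1 cell, and without the cells with macrophage genes its log2 ratio went from 5.92 to 1.25 at 2.12 and 6.44 CPM, a level of 1 and 2 UMIs. Ccl9, a chemokine, went from 46.5 and 275 CPM to 8.47 and 32.2 CPM and its ratio from 2.54 to 1.81. The ratio of Ms4a4c went from 2.33 to 1.17. AA467197, the mouse gene also called Nmes1, had 5 UMIs in 2 of 36 and 78 UMIs in 11 of 27 cDC1, with 36 of the latter in 1 cell, a level of 10.1 and 202 CPM and a log2 ratio of 4.20 (3.04 to 5.99). Without the cells with macrophage genes its level was 2.12 CPM, or 1 UMI, and 83.7 CPM, and the ratio of 4.76 rests on that 1 UMI. Ifi27l2a, an interferon-inducible gene, had 65 UMIs in 15 of 36 and 241 UMIs in 21 of 27 cDC1, a log2 ratio of 2.24 (1.85 to 2.67) that was 1.57 without the cells with macrophage genes.

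Ifitm1 and Ifitm3 belong to a family of membrane proteins that restrict viruses. The highest Ifitm1 counts of the library labelled DTX were 219, 173 and 105 UMIs, in cells with 0 UMIs of Xcr1, so most of its Ifitm1 UMIs lay in few cells. Ifitm1 had 166 UMIs in 17 of 36 cDC1 of the library labelled PBS, 108 of them in 1 cell, and 628 UMIs in 15 of 27 of the library labelled DTX. Its log2 ratio was 2.28 (2.03 to 2.54), 2.52 without the cells with macrophage genes and 3.17 without the cell with the most UMIs of Ifitm1 in each library, but 0.81, under 2-fold, in the 22 and 12 cDC1 with at least 1 UMI of each of Xcr1 and Clec9a. Ifitm3, named after its values had been seen, had a median of 1.5 and 30 UMIs per cDC1, was found in 22 of 36 and 24 of 27 cells and had a log2 ratio of 1.58 that was 1.60 without the cells with macrophage genes. In the same order of libraries its level was 749 and 2245 CPM in cDC1, 1071 and 3006 CPM in Cd209a cells, 871 and 2056 CPM in Ccr7 cells, 239 and 464 CPM in Langerhans cells and 2068 and 3758 CPM in macrophages. It was thus higher in the library labelled DTX in each of these 5 groups.

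The 12 lowest ratios were those of Fabp5, Pla2g16, Arhgap45, Mgl2, Cd207, Col3a1, Dst, Apoe, Mt2, Atad2, Selenop and Fdx1, between -2.39 and -1.55. All 12 stayed past 2-fold without the cells with macrophage genes, some of them at a far lower level. Selenop then stood at 16.9 CPM (PBS) and 0 CPM (DTX), a log2 ratio of -4.17 that rests on few UMIs. Apoe stood at 86.8 and 35.4 CPM with a log2 ratio of -1.27, and Fabp5 at 95.3 and 32.2 CPM with -1.54. Without the cell with the most UMIs of the gene in question in each library, which can differ between genes, 8 stayed past 2-fold. Of the others 2, Apoe and Selenop, turned to 1.17 and 0.79, since 453 of 494 Apoe UMIs and 55 of 63 Selenop UMIs of the library labelled PBS lay in 1 cell. Fabp5, a fatty acid binding protein, had 132 of its 177 UMIs of that library in 1 cell, and its ratio without the top cells was -0.98. For Apoe and Fabp5 this was the same cell, the cell with macrophage genes of the library labelled PBS. Other cells with macrophage genes of the library labelled DTX stayed in, with up to 31 Apoe UMIs. Mgl2, a lectin of dermal dendritic cells, had 50 UMIs in 12 of 36 and 9 UMIs in 5 of 27 cDC1, a log2 ratio of -2.07 (-3.32 to -1.07) and of -2.18 without the cells with macrophage genes. Pla2g16, a phospholipase, had 45 UMIs in 21 of 36 and 7 UMIs in 6 of 27 cDC1, a log2 ratio of -2.26 (-3.72 to -1.16) and of -2.49 without them. Mt2, a metallothionein, had 90 UMIs in 25 of 36 and 22 UMIs in 9 of 27 cDC1. Col3a1, a collagen of fibroblasts, entered the rule and moved with the sum of fibroblast RNA given above.

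**Figure D4:**
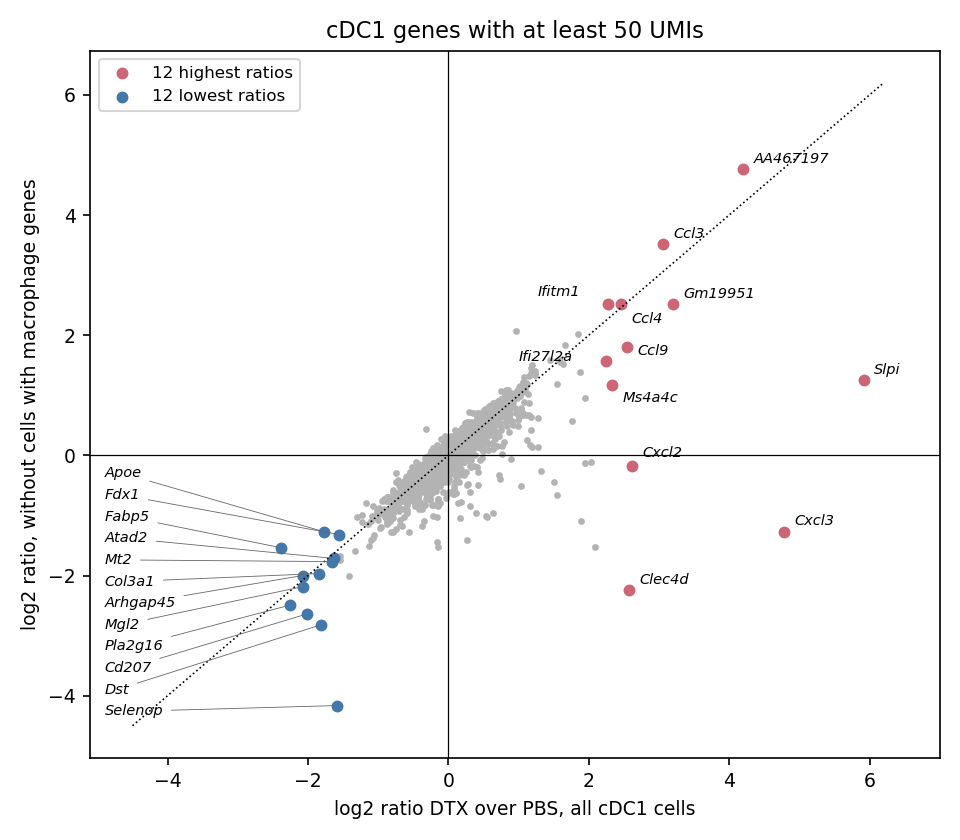
Log2 ratio of DTX over PBS in all cDC1 (horizontal) and without the cells with macrophage genes (vertical) for genes with at least 50 UMIs; the dotted line marks equal values. The 12 highest ratios are red and the 12 lowest blue, and Cxcl2, Cxcl3 and Clec4d lie below 0 on the vertical axis while Ccl4, Ccl3, AA467197 and Ifitm1 lie near the line.

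The same genes were looked up in the other groups of the 2 libraries. Of the 12 genes with the highest ratios in cDC1, 8 were higher in the library labelled DTX in Cd209a cells, 10 in Ccr7 cells, 11 in Langerhans cells and 12 in macrophages. Of the 12 with the lowest ratios, 5, 8, 6 and 10 were lower there. In the same order of groups, 4, 3, 8 and 7 of the former were at least 2-fold higher, and 1, 0, 0 and 0 2-fold lower. Of the latter, 3, 2, 2 and 5 were at least 2-fold lower, and 3, 1, 1 and 0 2-fold higher. These counts were not set against the share of all genes in those groups, so no result about the genes was read from them. These groups come from the same libraries as the cDC1. Ccl4 stood at 24.6 and 91.0 CPM in Cd209a cells, at 30.7 and 39.6 CPM in Ccr7 cells and at 188 and 236 CPM in macrophages. Cd207 stood at 579 and 241 CPM in Ccr7 cells and at 19.7 and 28.2 CPM in Cd209a cells.

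The cDC1 differed among themselves in Cd207, a split made after the values had been seen. In the library labelled PBS, 12 cells had at least 2 UMIs of Cd207 and 24 had 0 or 1. Xcr1 stood at 223 CPM in the 12 cells and was found in 11 of them, and stood at 72.9 CPM in the 24 and was found in 12. In the same order, Itgae stood at 193 and 103 CPM, Mgl2 at 211 and 45.6 CPM and Ccl4 at 452 and 100.3 CPM, whereas Clec9a stood at 175 and 173 CPM. Of the 75 Ccl4 UMIs of the 12 cells, 45 lay in 1 cell. Xcr1 and Clec9a chose the cells, so their levels here are a description only. In the library labelled DTX, the 4 cells with at least 2 UMIs had Xcr1 at 192 CPM and Itgae at 178 CPM, and the 23 others had 66.1 and 88.2 CPM. In both libraries the Itgae level was higher in the cells with langerin than in the other cDC1, without a test, since cells of 1 library are not replicates. Ccl4 was higher in the library labelled DTX also in the cells with 0 or 1 UMI of Cd207, at 944 CPM.

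The limit on Ccr7 left out cells that met every other condition, 7 in the library labelled PBS and 12 in the library labelled DTX. They had Ccr7 at 987 and 1021 CPM by the rule, Irf8 at 494 and 468 CPM, Wdfy4 at 207 and 210 CPM and Clec9a at 188 and 156 CPM. Il12b, at 0 UMIs in the 63 cDC1, stood at 158 and 84.1 CPM in them, Ccl22, a chemokine of mature dendritic cells, at 444 and 318 CPM, and Fscn1 at 345 and 0 CPM.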

How the data were processed

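Live cells were captured in droplets (10x Genomics). The authors deposited raw UMI counts of every gene in each cell. Cell Ranger 6.1.1 per the file headers (6.0.0 in the methods) had made them against mm10, without normalization or further cell filters. Here UMIs were added up within a group and library and scaled to 1000000 (CPM), which does not depend on gene length. Genes with at least 50 UMIs in cDC1 of both libraries together were compared as log2 ratios with 1 CPM added, and a difference of at least 2-fold was counted. Intervals (95%) are exact conditional binomial for ratios and Clopper-Pearson for shares. They cover counting error only, and 3 counts were used as the limit of a count of 0. Cells were thinned to 2000 UMIs for shares, and none of the cDC1 was left out. The methods state an upper limit of 2000 genes, which was not applied because 55.9% and 52.2% of the barcodes exceeded it. Doublets were called per library by Scrublet (scanpy 1.11.5, expected rate 8%). It called 4.59% of the library labelled PBS and 0% of the library labelled DTX, where the highest 8% of scores were taken instead, and calls were removed as an alternative. The ratio step was tested on simulated data. Python 3.11.15, numpy 2.4.6, scipy 1.17.1 and pandas 2.3.3 were used with the seed 1. Named genes were the 12 highest and 12 lowest ratios, the 20 genes with the largest ratio of cDC1 to the other dendritic groups, the 10 most abundant genes and the genes of the lists, some members of which are not reported here. The members, lists, alternatives and rules were chosen with earlier results of these data known.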

Additional observations from a re-analysis of the deposited data

How the results depend on the processing

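No paired analysis was possible because each condition had 1 library. Replicates could not be left out for the same reason, so differences between mice and captures cannot be estimated, and with 36 and 27 cells a few cells can decide a ratio. With the upper limit of 2000 genes, 0 and 1 cDC1 were left (0% and 0.0379% of kept cells, 0% and 0.0529% of Ptprc-positive cells in the libraries labelled PBS and DTX). With the rule on cells thinned to 3000 UMIs, 11 and 7 were left (0.148% and 0.110% of kept cells, 0.488% and 0.148% of Ptprc-positive cells). Under these 2 settings expression was not computed, because under 10 cells were left in a library. With at least 1 UMI of each of Xcr1 and Clec9a the shares were 0.264% and 0.167% of kept cells and 0.875% and 0.231% of Ptprc-positive cells, and with at least 3 UMIs of the pair they were 0.223% and 0.308% in the library labelled DTX. In each of these settings the share of Ptprc-positive cells stayed higher in the library labelled PBS except under the limit of 2000 genes.

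The number of genes 2-fold higher in the library labelled DTX was 37 with doublets removed, 39 without the cells with macrophage genes, 229 of 4318 with at least 20 UMIs and 12 of 577 with at least 200 UMIs. The number lower was 136 with at least 20 UMIs, 5 with at least 200 UMIs and 14 with at least 1 UMI of each of Xcr1 and Clec9a. Fewer or more genes enter under these limits. The median of MHC class I and cross-presentation was 0.31 with at least 3 UMIs of the pair and 0.31 with at least 1 UMI of each, and that of growth factor receptors was -0.056 over 3 genes with at least 3 UMIs. Ratios past 2-fold changed sign for Cxcl3 (-0.40) and Clec4d (-0.082) with doublets removed, for Cxcl3 (-1.27), Cxcl2 (-0.17) and Clec4d (-2.25) without the cells with macrophage genes, for Apoe and Selenop with at least 3 UMIs (1.20 and 0.31), with at least 1 UMI of each (1.44 and 1.26) and without the cells with the most UMIs of the gene (1.17 and 0.79). The last 2 changes rest on 1 cell, for Apoe the cell with macrophage genes of the library labelled PBS. Of 94 list medians 5 changed sign, that of the interferon-stimulated genes with doublets removed (-0.39) and without the cells with macrophage genes (-0.65), that of growth factor receptors as above, and that of immediate early and heat shock genes as a mean over cells (-0.021) and with at least 200 UMIs (-0.096). The other 116 values of shares, counts and lists stayed within 1.5 times (counts) or within their interval, which for a list median spans its genes and is wide in short lists, so that it holds 4 of these 5 changes. The alternatives without the cells with macrophage genes and without the cells with the most UMIs of a gene were chosen after seeing the data. Single genes were tallied for the 12 highest and 12 lowest ratios and for Il1b, Cd80, Flt3, Irf8, Batf3, Wdfy4 and Ifitm3. Of their ratios under the alternatives, 226 stayed within their interval with the same sign, 50 left it with the same sign and 14 changed sign. These 14 were the 11 given above and 3 of genes near 0. The latter were Batf3 with at least 3 UMIs (-0.039) and with at least 1 UMI of each (-0.055) and Wdfy4 with at least 1 UMI of each (-0.14). Tap1, Cd86 and Cd83, which changed sign without the cells with macrophage genes, were not tallied. Sod2 and Top2a, which were not tallied either, came under 2-fold without the cells with macrophage genes, as given above. Of the 26 tallied genes past 2-fold, 8 came under 2-fold in at least 1 alternative. Besides the changes of sign, these were Cxcl2 with doublets removed (0.80), Ifitm1 with at least 1 UMI of each (0.81), Apoe and Selenop as a mean over cells (-0.71 and -0.38), Fabp5 without the cells with the most UMIs of the gene (-0.98), and Fdx1 with at least 3 UMIs (-0.37), with at least 1 UMI of each (-0.55) and without the cells with the most UMIs of the gene (-0.82).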
